A study of Mus musculus with 10 samples.

Results

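The 10 clock output and repressor genes Dbp, Hlf, Tef, Per1, Per2, Per3, Nr1d1, Nr1d2, Bhlhe40 and Bhlhe41 were followed in mouse brain at 1 and 8 weeks of age. They were found by the array annotation's gene symbol, which gave 18 probe sets among the 22626 that were not array controls. Every gene is shown by its brightest probe set. The other probe sets are given beside it for the members and the other clock genes. For the remaining lists only the brightest is given. After dim probe sets were left out, 13 probe sets of 9 members were tested, among 8147 genes in all. Bhlhe41 fell below that filter and its values are given without an age test among the 8147 genes.

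The samples were brains of C57BL/6 mice, an inbred laboratory strain, and every group shares that strain. The 1-week group held 3 arrays with a female label and 3 with a male label, and the 8-week group 2 of each. No genetic change or agent is named in the labels, and whether each numbered brain came from a separate animal is not stated, so p-values measure the spread between these samples. The hour at which brains were taken is not given in the sources used here, which matters for genes whose RNA follows the day. In bulk tissue, fewer cells of a type and less RNA per cell cannot be told apart.

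The circadian clock is a transcriptional feedback loop. The activators CLOCK and ARNTL (also called BMAL1) bind E-box elements and switch on the Per, Cry, Nr1d and Bhlhe4 genes, whose proteins then repress CLOCK-ARNTL activity or, for the REV-ERB proteins made from Nr1d1 and Nr1d2, the Arntl gene itself. The PAR bZIP factors DBP, HLF and TEF are outputs of the loop that bind D-box elements and carry its rhythm to other genes. In most mouse tissues Nr1d1 and Dbp RNA peak before Per1 and Per2 RNA, and Arntl RNA peaks in the opposite part of the day.

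The arrays differed in overall brightness by a factor of 2.30 before normalization between arrays, as trimmed means. Every 8-week array was brighter than every 1-week array, at 256 to 319 against 139 to 237, so brightness went with age. In 4 of the 6 arrays of 1 week the sex-chromosome transcripts went against the label. The RNA Xist, made from the inactive X of female cells, read 163 and 164 in replicates 1 and 2 labelled female and 1664 and 1422 in replicates 2 and 3 labelled male. Replicate 3 labelled female carried both Xist (866) and the Y-linked Eif2s3y (53.9). At 8 weeks these transcripts followed the labels. Labels at 1 week are therefore only names of arrays here, and results are also given without these 4 and replicate 3 labelled female, called the 5 doubted arrays. The 1-week array that then remains is replicate 1 labelled male. It read 293 for Xist and 70.7 for Eif2s3y and was the dimmest of all arrays before normalization.

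Stretches of 250 bases before the start site, from RefSeq (GRCm38.p6), show where the letters of known clock and signal elements occur near some members. The table held 10 start sites of 8 members, with Per2 and Bhlhe40 unmatched. Motifs were searched on both strands of these windows plus the first 50 bases after the start. They were the E-box CACGTG, its variant CACGTT, the D-box TTANGTAA, the REV-ERB and ROR element ANTNGGTCA and the cyclic AMP response element TGACGTCA. No motif is part of another. The 5 members below are shown because a motif was found, with the motif in capitals and strands as in the genome build.
Per1 (chr11:69098699-69098948, strand +): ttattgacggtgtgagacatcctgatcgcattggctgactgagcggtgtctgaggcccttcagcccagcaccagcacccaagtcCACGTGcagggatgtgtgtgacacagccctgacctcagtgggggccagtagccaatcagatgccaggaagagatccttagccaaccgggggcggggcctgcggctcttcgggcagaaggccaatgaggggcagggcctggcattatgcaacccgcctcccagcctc
Tef (chr15:81811164-81811413, strand +): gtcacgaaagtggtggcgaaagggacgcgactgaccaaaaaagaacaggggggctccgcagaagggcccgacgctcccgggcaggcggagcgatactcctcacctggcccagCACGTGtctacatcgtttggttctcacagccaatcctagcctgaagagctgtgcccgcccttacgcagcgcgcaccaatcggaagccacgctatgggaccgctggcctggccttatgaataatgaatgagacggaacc
Nr1d1 (chr11:98775378-98775627, strand -): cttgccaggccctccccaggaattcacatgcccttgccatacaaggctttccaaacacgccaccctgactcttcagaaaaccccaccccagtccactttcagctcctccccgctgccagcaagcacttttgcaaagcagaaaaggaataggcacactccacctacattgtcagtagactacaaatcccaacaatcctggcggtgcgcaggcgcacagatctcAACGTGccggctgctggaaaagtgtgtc
Per3 (chr4:151044666-151044915, strand -): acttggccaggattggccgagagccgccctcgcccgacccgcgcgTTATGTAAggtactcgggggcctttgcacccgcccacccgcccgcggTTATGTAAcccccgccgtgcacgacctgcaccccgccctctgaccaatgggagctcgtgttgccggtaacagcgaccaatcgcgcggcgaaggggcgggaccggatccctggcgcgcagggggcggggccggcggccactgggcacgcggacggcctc
Hlf (chr11:90390918-90391167, strand -): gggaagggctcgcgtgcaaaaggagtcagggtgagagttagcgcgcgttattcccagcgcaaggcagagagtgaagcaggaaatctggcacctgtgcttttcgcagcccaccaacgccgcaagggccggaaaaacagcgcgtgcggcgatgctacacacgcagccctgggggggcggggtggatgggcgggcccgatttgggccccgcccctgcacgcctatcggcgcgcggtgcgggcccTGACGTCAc

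The E-box began 166 bases before the start site in Per1 and 138 bases before it in Tef. An E-box was also found 127 bases before another Tef start site and 153 bases before that of Bhlhe41. The variant lay 28 bases before the start of Nr1d1, read on the other strand. In Per3 a D-box, the element bound by the DBP, HLF and TEF proteins, occurred 205 and 158 bases before the start. The response element, which in other genes answers to cyclic AMP and calcium signals, lay 9 bases before the start of Hlf. Of all 32851 windows of this length, 7.15% held the E-box, 4.68% its variant, 2.32% the D-box, 2.24% the REV-ERB and ROR element and 1.79% the cyclic AMP element. The windows of Dbp and Nr1d2 and the other Per1 window held none of the 5 motifs. A match is a description of letters and not a measured binding site.

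The age comparison asked how these genes differed between 1 and 8 weeks. All 9 members that were tested were higher at 8 weeks, from 0.28 for Per1 to 1.79 for Bhlhe40 on the log2 scale, and 0 were lower. The median of the 9 was 1.12, against -0.0199 over all 8147 genes, which quantile normalization holds near 0. Without normalization the median change over all probe sets tested was 0.47. Of all genes tested, 21.9% were higher at 8 weeks by the same rule (limma, Benjamini-Hochberg adjusted p under 0.05), 24.0% were lower and 45.9% passed in either direction. All 13 member probe sets tested were higher too, where 22.0% of all probe sets were higher and 46.0% passed in either direction. In 8 of the 9 members the arrays of the 2 ages did not overlap, where 35.9% of all genes did not. Intensities below are quantile-normalized, means are ± SD over 6 arrays at 1 week and 4 at 8 weeks, and changes are log2(intensity + 24) at 8 weeks minus 1 week ± SE, which understates the change of dim genes. Per2 passed the filter only through its 8-week values, so a low 1-week level had to show as a difference. The count of members higher was 8 without the 4 arrays whose sex transcripts opposed their label, with age alone in the model. It was 8 again when replicate 3 labelled female was left out too, which leaves 1 array of 1 week. Per1 was the member that lost its call.

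**Figure D1:**
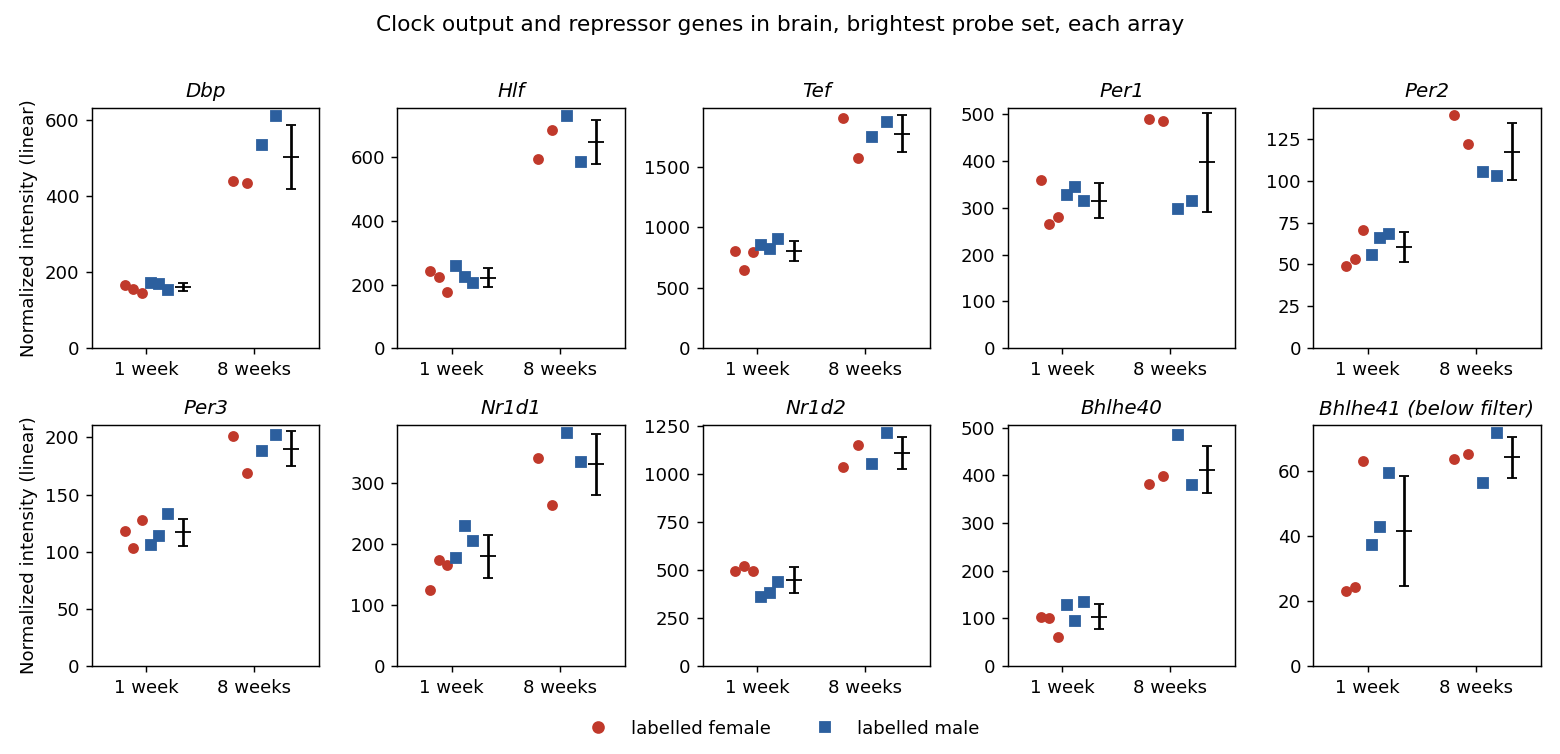
Normalized intensity (linear scale, from 0) of the brightest probe set of each of the 10 members in every array, at 1 and 8 weeks, with black bars for the mean ± SD of each age (6 and 4 arrays). All 8-week arrays lie above all 1-week arrays in 8 members, while in Per1 and Bhlhe41 the ages overlap.

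Among the PAR bZIP activators, Dbp was higher at 8 weeks than at 1 week in every array. At 1 week Dbp ran from 146 to 173 with a median of 162. At 8 weeks it read 439 and 434 in female-labelled arrays and 533 and 610 in those labelled male. The 2 ages were far apart, and the 1-week arrays lay close together. Mean Dbp intensity went from 161 ± 10.3 to 504 ± 84.0, a change of 1.50 ± 0.08 (limma adjusted p = 5.74e-07). A second Dbp probe set read 515, 358, 630 and 568 at 8 weeks in the same order and changed by 1.80 ± 0.11 (limma adjusted p = 1.66e-06).

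Hlf, the relative of Dbp first known from a leukaemia gene fusion, changed by nearly the same amount. It ran from 176 to 258 at 1 week with a median of 223. At 8 weeks it read 594, 684, 727 and 584, females first, with no split by label. The change was 1.45 ± 0.11 (limma adjusted p = 5.82e-06), and 1.36 ± 0.09 at the other probe set. Tef, thyrotroph embryonic factor, ran from 652 to 901 at 1 week with a median of 813. At 8 weeks it read 1909, 1573, 1752 and 1872, so that every array was above the 1-week maximum. Tef changed by 1.12 ± 0.09 (limma adjusted p = 8.08e-06). A second Tef probe set changed by 0.91 ± 0.11, and the last, below the filter, ran from 43.6 to 73.6 at 1 week and from 50.8 to 74.7 at 8 weeks. The changes of the Tef probe sets were not tested against each other, and the dim one lies where a change is hard to see.

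Whether related genes changed by different amounts was tested on the within-array log2 ratio of each pair, in 8 pairs, with a two-sided exact permutation test over arrays. The smallest p this design allows is 0.00476. The Dbp change exceeded that of Tef by 0.38 (exact permutation p = 0.00952, adjusted p = 0.0381 over the 8 pairs), although the ratios overlapped between ages. Dbp and Hlf differed by 0.0480 (exact permutation p = 0.767, adjusted p = 0.767), with an SD of the log2 ratio of 0.11 at 1 week and 0.29 at 8 weeks. Hlf exceeded Tef by 0.33, which did not pass (exact permutation p = 0.0905, adjusted p = 0.145). The Dbp and Tef call was lost at 4 times the pseudocount, where the difference was 0.16 (exact permutation adjusted p = 0.314), and without normalization, at 0.33, and after median scaling, at 0.36. It was also lost on leaving out any of 8 arrays, every array but replicate 2 labelled female at 1 week and replicate 1 labelled female at 8 weeks.

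The period genes encode the repressors that join the cryptochromes to shut off CLOCK-ARNTL. Per1, which is also induced within minutes by synaptic activity and glucocorticoid, had the smallest change of the members tested. At 1 week it ran from 265 to 360 with a median of 321. At 8 weeks Per1 read 489.7 and 485 in female-labelled arrays and 298 and 314 in those labelled male. The arrays labelled female stood above every 1-week array, and those labelled male stood within the 1-week range. The change over both labels was 0.28 ± 0.09 (limma adjusted p = 0.0271). With age alone in the model the spread between labels entered the error and the call was lost (0.28 ± 0.15, limma adjusted p = 0.136). It was also lost on leaving out any of 7 arrays, namely the 4 arrays of 8 weeks and, of the 1-week arrays, female-labelled replicates 2 and 3 and male-labelled replicate 3, with adjusted p from 0.0526 to 0.0826. Over all its alternatives the Per1 adjusted p ran from 1.10e-04 to 0.600.

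Per2 ran from 49.4 to 70.6 at 1 week with a median of 60.5. At 8 weeks it read 139, 122, 105 and 103, with the arrays labelled female higher as in Per1. All 4 were above the 1-week maximum, and the change was 0.74 ± 0.09 (limma adjusted p = 1.25e-04). The other Per2 probe set lay below the filter at 43.5 ± 12.1 and 57.9 ± 9.95. Per3, the family member with a weaker role in the loop, ran from 103 to 133 at 1 week with a median of 116. At 8 weeks Per3 read 201, 169, 188 and 202, all above the 1-week arrays. It changed by 0.60 ± 0.09 (limma adjusted p = 3.98e-04), and its 2 other probe sets lay below the filter. One of these read 40.5 ± 14.5 at 1 week and 52.7 ± 9.87 at 8 weeks, the other 6.32 ± 5.08 and 9.56 ± 6.74. The Per1 change was smaller than that of Per2 by 0.46 in the within-array ratio (exact permutation p = 0.0190, adjusted p = 0.0508 over the 8 pairs). The pair passed at the smaller pseudocount (-0.60) and without replicate 3 labelled female at 1 week (-0.52), and in none of the other 12 of its 14 alternatives. Per1 against Per3 (exact permutation p = 0.138, adjusted p = 0.184) and Per2 against Per3 (exact permutation p = 0.2, adjusted p = 0.229) did not pass either.

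The REV-ERB genes encode nuclear receptors that bind heme and repress Arntl. Nr1d1 (REV-ERB alpha) ran from 125 to 229.9 at 1 week with a median of 176. At 8 weeks it read 341, 264, 382 and 335, all above the 1-week arrays. The change was 0.81 ± 0.12 (limma adjusted p = 2.98e-04). Nr1d2 (REV-ERB beta) ran from 360.3 to 520.3 at 1 week with a median of 464. At 8 weeks Nr1d2 read 1034, 1147, 1051 and 1210.5, all far above the 1-week arrays. It changed by 1.28 ± 0.08 (limma adjusted p = 2.10e-06) and its dimmer probe set by 1.11 ± 0.18. The Nr1d1 change was smaller than that of Nr1d2 by 0.47, which did not pass (exact permutation p = 0.0857, adjusted p = 0.145 over the 8 pairs). At 1 week the 3 arrays labelled female read 496, 520.3 and 493 for Nr1d2 and those labelled male 360.3, 378 and 435. Those labels do not give the sex of the brain.

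The DEC genes encode basic helix-loop-helix repressors that compete with CLOCK-ARNTL for E-boxes. Bhlhe40 (DEC1), which also responds to hypoxia and neuronal activity, had the largest change of the members tested. It ran from 61.7 to 135 at 1 week with a median of 101. At 8 weeks it read 382, 398, 484 and 381, all well above the 1-week arrays. Mean Bhlhe40 intensity went from 104 ± 26.3 to 411 ± 49.3, a change of 1.79 ± 0.14 (limma adjusted p = 5.81e-06). Bhlhe41 (DEC2), the close relative of Bhlhe40, ran from 22.9 to 63.0 at 1 week and read 63.6, 65.3, 56.2 and 71.6 at 8 weeks. The ages overlapped, and in a fit with no filter it did not pass (0.46, limma adjusted p = 0.0889). The Bhlhe40 change exceeded that of Bhlhe41 by 1.33 (exact permutation p = 0.00476, the smallest possible, adjusted p = 0.0381 over the 8 pairs), with ratios that did not overlap between ages. A dim probe set such as that of Bhlhe41 can understate a change. Leaving out any of 7 arrays raised the adjusted p of this pair past the threshold, up to 0.0952, while the difference stayed between 1.12 and 1.47 over its alternatives. In these settings the exact permutation p was 0.00794 without a 1-week array and 0.0119 without an 8-week array. Those are the smallest values that the remaining arrays allow, so these settings cannot show whether the call rests on single arrays. The 7 were every array but replicates 2 and 3 labelled female at 1 week and replicate 1 labelled female at 8 weeks.

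**Figure D2:**
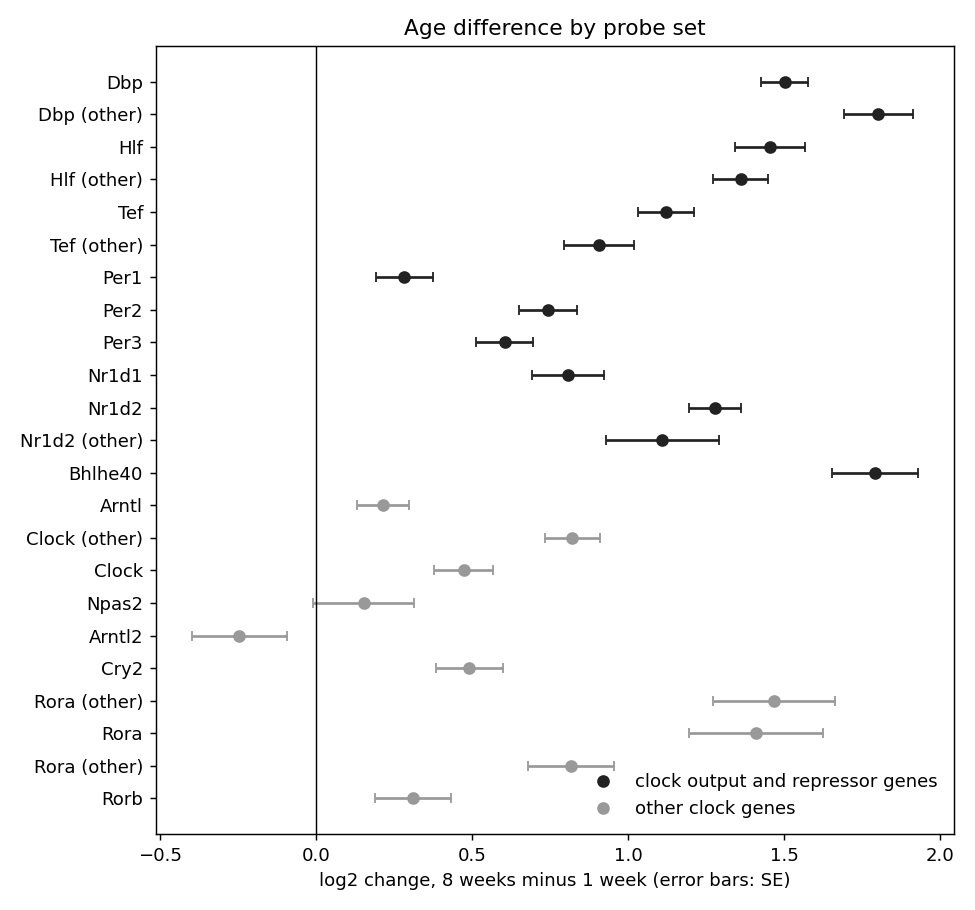
The log2 change from 1 to 8 weeks with its SE for every probe set past the filter, in black for the clock output and repressor genes and in grey for other clock genes. The 13 black points lie between 0.28 and 1.80, with Per1 lowest, while among the grey points Arntl2 is below 0.

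Among the partners of these genes in the loop, Rora, Clock and Cry2 rose. Of 12 listed, 10 had a probe set and 7 passed the filter, of which 3 rose, 0 fell and 4 did not pass, with a median change of 0.31. Over all genes 45.9% passed in either direction, so a count of 3 of 7 is near the background. Rora, a nuclear receptor that activates Arntl and competes with REV-ERB, rose by 1.41 ± 0.21 (limma adjusted p = 4.38e-04), and its other probe sets by 1.47 ± 0.19 and 0.82 ± 0.14. The last of these, at 67.3 ± 13.2 at 1 week, passed the filter only through its 8-week values. Rora is abundant in cerebellar Purkinje cells, and it was highest at 8 weeks in replicate 2 labelled male, at 1029, where 7 cerebellar neuron markers also summed highest, at 20315. In the other 8-week arrays Rora read 649, 746 and 654 and the markers summed to 13644, 13939 and 7828. The part of these markers in the Rora change was not tested. Clock rose by 0.47 ± 0.09 (limma adjusted p = 0.00237) and by 0.82 ± 0.09 at its other probe set, and Cry2, a cryptochrome repressor, by 0.49 ± 0.11 (limma adjusted p = 0.00417).

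Arntl, the activator whose RNA peaks opposite to Nr1d1 in most tissues, ran only from 226 to 239 at 1 week and read 259, 294, 241 and 310.5 at 8 weeks. Its arrays did not overlap between ages, yet the change of 0.22 ± 0.08 did not pass (limma adjusted p = 0.0566). It passed in 5 alternatives, among them age alone in the model and the filter at the 60th percentile, with adjusted p from 3.49e-04 to 0.361 over all of them. Npas2, which can stand in for CLOCK in forebrain, read 74.8 ± 26.9 at 1 week and 82.4 ± 7.17 at 8 weeks (limma adjusted p = 0.469). The other Npas2 probe set, below the filter, read 67.6 ± 20.2 and 86.5 ± 7.02. Rorb was 169 ± 31.4 and 215 ± 29.5 (limma adjusted p = 0.0571), and Arntl2 105 ± 29.7 and 82.7 ± 7.85 (limma adjusted p = 0.217). Rorb passed in 7 of 22 alternatives, among them median scaling (0.33) and array weights (0.34), and was -0.0138 without the 5 doubted arrays. Arntl2 passed only without those 5 arrays, at -0.72 (limma adjusted p = 0.0110). Cry1, Nfil3, the repressor that opposes the PAR bZIP factors at D-boxes, and Timeless lay below the filter. Nfil3 read 59.6 ± 13.3 at 1 week and 48.6 ± 11.8 at 8 weeks, Cry1 43.9 ± 5.48 and 58.4 ± 14.3. Timeless, a gene whose part in the mammalian clock is debated, ran from 44.5 to 74.7 at 1 week and from 41.0 to 43.3 at 8 weeks without overlap. In the fit with no filter this probe set passed (-0.32, limma adjusted p = 0.0448). The other Timeless probe set overlapped between ages, from 4.23 to 52.8 at 1 week and from 3.24 to 28.9 at 8 weeks. It did not pass in that fit (-0.55, limma adjusted p = 0.257). Without the 5 doubted arrays, Clock lost its call at 0.44 (limma adjusted p = 0.0597).

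Among proteins that set the speed of the loop, Usp2 had the largest rise and Nono the largest fall. Of 17 listed kinases, phosphatases, ubiquitin ligases and cofactors, 12 were tested, 4 rose and 2 fell, with a median change of -0.0597. Over all genes 45.9% passed in either direction, so a count of 6 of 12 is near the background. Usp2, a deubiquitinase that is itself under clock control, rose by 0.74 ± 0.10 (limma adjusted p = 1.83e-04). Ppp5c, a phosphatase acting on casein kinase I epsilon, rose by 0.45 ± 0.11 (limma adjusted p = 0.00597). Btrc and Fbxw11, ligase subunits that mark PER proteins for breakdown, rose by 0.39 ± 0.14 (limma adjusted p = 0.0379) and 0.23 ± 0.08 (limma adjusted p = 0.0357). Csnk1e, the kinase that phosphorylates PER proteins, fell by 0.50 on the log2 scale (limma adjusted p = 0.00107) and Nono, a PER-binding cofactor, by 0.53 (limma adjusted p = 6.67e-04). Without normalization between arrays the whole table shifted up by a median of 0.47, and relative to it Csnk1e was at -0.42 and Nono at -0.45. The Btrc call was lost on leaving out any array of 8 weeks or replicate 1 or 2 labelled female at 1 week. The Fbxw11 call was lost without any of 7 arrays, all but male-labelled replicate 1 of either age and female-labelled replicate 2 of 1 week. Both calls were also lost with no filter, with the replicate block (0.33 and 0.23) and without the 4 arrays whose sex transcripts opposed their label. Without the 5 doubted arrays Btrc was at 0.23, Fbxw11 at 0.20 and Nono at -0.44, and all 3 calls were lost.

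Genes known to follow the clock or REV-ERB in other tissues included both rises and falls. Of 12 listed, 9 were tested, 3 rose, 4 fell and the median was -0.28, where 21.9% of all genes were higher and 24.0% lower. Wee1, a mitotic kinase gene with E-boxes, rose by 0.90 ± 0.15 (limma adjusted p = 8.71e-04), the neuropeptide gene Vip by 1.26 ± 0.22 (limma adjusted p = 0.00101) and the kinase gene Sgk1 by 1.05 ± 0.12 (limma adjusted p = 7.25e-05). Fabp7, a fatty acid binding protein of radial glia that REV-ERB represses, fell by 2.91 on the log2 scale (limma adjusted p = 6.78e-08). Cdkn1a, a cell cycle inhibitor, fell by 1.04 (limma adjusted p = 5.86e-04), Nampt, an enzyme of NAD synthesis, by 0.31 (limma adjusted p = 0.00786) and the transferrin receptor gene Tfrc by 0.29 (limma adjusted p = 0.0169). Without normalization Nampt was at -0.28 and Tfrc at -0.20 relative to the shift of the whole table. The calls of Wee1 (0.91), Nampt (-0.28) and Tfrc (-0.27) were lost without the 4 arrays whose sex transcripts opposed their label. Without the 5 doubted arrays, which leaves 1 array of 1 week, Vip was at 1.09, Wee1 at 1.05, Nampt at -0.29 and Tfrc at -0.15, and none passed. Tfrc also lost its call without replicate 1 labelled male at 8 weeks.

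At 8 weeks the members were also set side by side across the 2 labels, which sex transcripts bear out at that age. Over all 8147 genes 0 passed with limma for male minus female at 8 weeks and 0 for the age by label interaction. The gene counts at an unadjusted p under 0.05 were 195 and 407. The 1-week arrays also enter the error of this fit, and their label groups mix the sexes by their sex transcripts. At 8 weeks Xist read 1676 and 1405 under female labels and 131 and 134 under male labels, yet no gene passed. The 0 therefore does not show that the labels are alike. No member passed, so what follows describes 4 arrays. Per1 was the member farthest apart, with means of 488 for female and 306 for male labels (log2 male minus female -0.63 ± 0.14, limma unadjusted p = 0.00113, adjusted p = 1). That size lay at percentile 99.3 of all genes. Per2 went the same way (-0.27 ± 0.14, limma unadjusted p = 0.0917), and Dbp the other way, with means of 436 and 571 (0.37 ± 0.12, limma unadjusted p = 0.0102). The 2 labels did not overlap in Per1, Per2 or Dbp. Over all genes 28.5% did not overlap, so the share of such members is near the background. At the other Dbp probe set they did not overlap either, at 515 and 358 against 630 and 568. Hlf, Tef, Per3, Nr1d1, Nr1d2 and Bhlhe40 overlapped between labels.

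The age change of Per1 was also fitted within each label. It was 0.66 ± 0.13 within female labels (limma adjusted p = 0.00357) and -0.0981 ± 0.13 within male labels (limma adjusted p = 0.599). The interaction was -0.76 ± 0.18 (limma unadjusted p = 0.00182, adjusted p = 0.857), so a difference between labels was not established. All 9 tested members passed within female labels and 8 within male labels, where 30.1% and 32.0% of all genes passed. The arrays at 1 week that enter these contrasts include the 4 whose sex transcripts opposed their label.

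**Figure D3:**
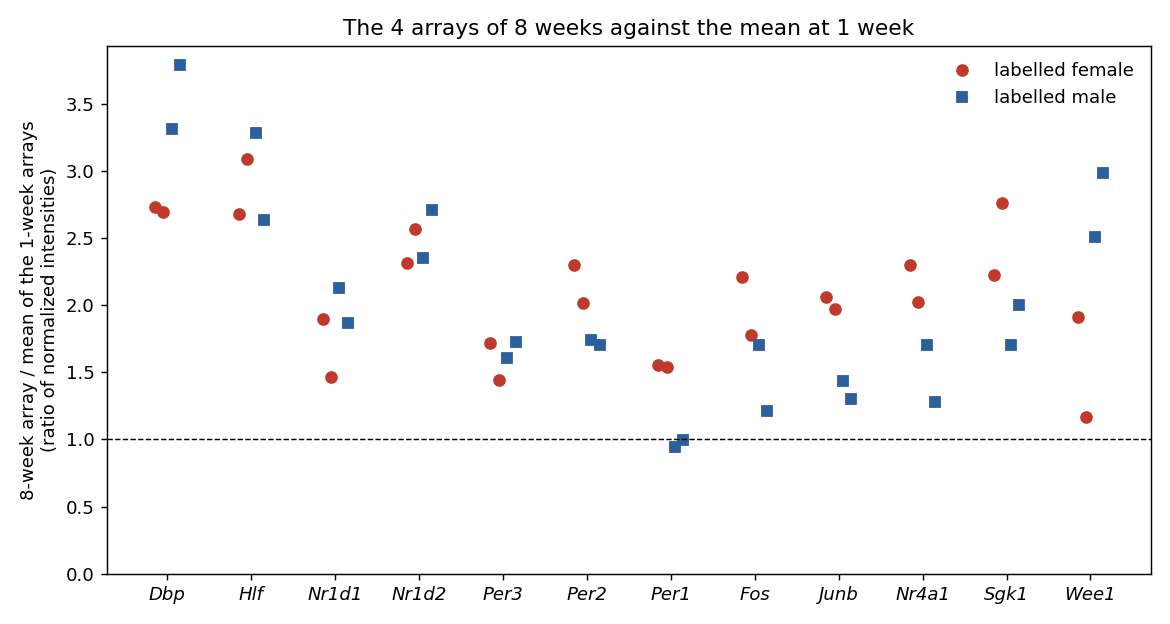
Ratio of each 8-week array to the mean of the 6 arrays of 1 week (linear axis from 0, dashed line at 1), for 7 members and 5 other genes chosen after their values were seen. Per1 and Per2 are higher in the 2 arrays labelled female and Dbp and Wee1 in the 2 labelled male, while the male points of Per1 sit at the line.

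Immediate early genes and glucocorticoid targets were listed because Per1 answers to the same stimuli. Of 14 listed, 11 were tested, 7 rose with age and 1 fell, with a median of 0.69, where 21.9% of all genes were higher and 24.0% lower. Egr1, a transcription factor induced by synaptic activity, rose by 1.49 ± 0.17 (limma adjusted p = 7.47e-05), the phosphatase gene Dusp1 by 0.81 ± 0.12 (limma adjusted p = 4.68e-04) and the glucocorticoid target Tsc22d3 by 0.89 ± 0.17 (limma adjusted p = 0.00209). Btg2, an antiproliferative gene, fell by 0.35 (limma adjusted p = 0.0452), was at -0.34 relative to the shift of the whole table without normalization, and lost its call on leaving out any of 8 arrays, all but male-labelled replicates 2 and 3 of 1 week. At 8 weeks 7 of the 11 did not overlap between labels and were higher in the arrays labelled female, against 28.5% of all genes without overlap in either direction. They were Fos, Junb, Nr4a1, Btg2, Dusp1, Sgk1 and Nfkbia. Fos read 364 and 293 in arrays labelled female and 280.2 and 199 in those labelled male, Junb 203 and 194 against 141 and 128, and Nr4a1 655 and 577 against 486 and 364. Sgk1 read 546 and 678 against 418 and 491. Tsc22d3 and Fkbp5, another glucocorticoid target, overlapped between labels, at 621 and 812 against 734 and 675, and at 324 and 367 against 375 and 309. So did the immediate early genes Egr1, at 2103 and 1849 against 1867 and 1626, and Ier2, at 104 and 112 against 108 and 139. Wee1 was split the way Dbp was, at 209 and 128 against 274 and 326. The part of these genes in the Per1 split was not tested.

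Spread among arrays of the same group was not large for most members at their brightest probe sets. The residual SD of the 9 members ranked from percentile 9.89 for Dbp to 82.1 for Bhlhe40 among all probe sets tested, with a median of 35.9. The rank depended on the probe set. The other tested probe sets of Dbp, Tef and Nr1d2 ranked higher, at 63.2, 63.4 and 93.8, where the brightest of Tef and Nr1d2 were at 35.4 and 21.0. That of Hlf ranked lower, at 30.3 against 63.6. By age, the SD of log2 values was 0.0813 at 1 week and 0.23 at 8 weeks for Dbp, and 0.16 and 0.37 for Per1. For Nr1d2 it was 0.21 and 0.11, and for Bhlhe40 0.32 and 0.16. Dbp and Per1 were thus the more variable at 8 weeks, and Nr1d2 and Bhlhe40 at 1 week. The labels at 8 weeks did not overlap in Dbp and Per1, as in 28.5% of all genes.

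**Figure D4:**
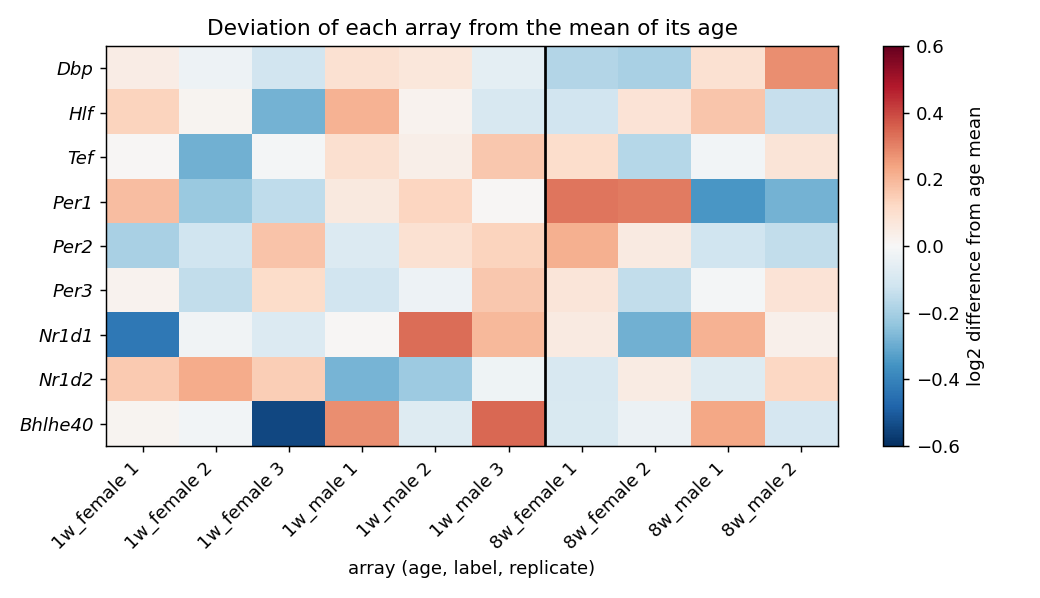
Log2 deviation of each array from the mean of its age, for the 9 members tested, with the vertical line between 1 week (left, 6 arrays) and 8 weeks (right, 4 arrays). Per1 deviates by 0.32 and 0.31 in the 8-week arrays labelled female and by -0.35 and -0.28 in those labelled male, and Dbp by -0.18 and -0.19 against 0.0914 and 0.28.

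Without the hour of collection, members with neighbouring or opposite daily phases were set against Dbp within the 6 arrays of 1 week, in 13 relations. None passed after adjustment with exact permutation of the pairings. Hlf was closest to Dbp, with Pearson r = 0.92 (exact permutation p = 0.00556, adjusted p = 0.0722) and Spearman rho = 0.94 (exact permutation p = 0.0167, adjusted p = 0.217). Without the 2 arrays farthest from the Dbp median, replicate 3 labelled female and replicate 1 labelled male, r was 0.74 over 4 arrays. Arntl, whose phase is opposite in most tissues, gave r = 0.73 (exact permutation p = 0.107, adjusted p = 0.389) and rho = 0.77 (exact permutation p = 0.103, adjusted p = 0.445), and r = 0.96 over the 4. Npas2 gave r = 0.85 (exact permutation p = 0.0347, adjusted p = 0.226) and rho = 0.89 (exact permutation p = 0.0333, adjusted p = 0.217), and r = 0.61 over the 4. Nr1d1, whose phase lies near that of Dbp, gave r = 0.0144 (exact permutation p = 0.976, adjusted p = 0.976) and rho = 0.31 (exact permutation p = 0.564, adjusted p = 0.611). The other relations went both ways. Pearson r was 0.72 for Per1, 0.50 for Bhlhe40 and 0.19 for Tef. It was -0.65 for Nr1d2, -0.60 for Per3, -0.56 for Per2, -0.55 for Bhlhe41, -0.49 for Cry1 and -0.37 for Clock. Dbp itself spanned only 146 to 173 in these arrays.

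Cell type markers that moved with age stand beside all of these changes. The summed intensity of 4 neuronal markers ran from 6665 to 7878 at 1 week and from 11475 to 12076 at 8 weeks, and 3 of the 4 rose. That of 4 mature oligodendrocyte markers ran from 250.1 to 1704 and from 4299 to 6296, with all 3 that were tested higher. Cerebellar markers, 6 of 7 higher, summed to between 3234 and 6596 and between 7828 and 20315. Of 4 astrocyte markers 1 rose (sums of 3006 to 4468 and 5447 to 6014), and of 4 microglial markers all 4 rose (1631 to 1989 and 2299 to 3104). Of 4 endothelial markers 2 fell (1065 to 1312 and 824 to 863), and of 4 meningeal markers 2 fell (991 to 5311 and 429 to 592). Pituitary markers, 2 of 3 tested higher, summed to between 187 and 2502 and between 965 and 13371. Choroid plexus markers did not pass in 2 of 2 tested (4960 to 6204 and 3961 to 8965), and of the blood markers the 1 tested fell (116 to 395 and 109 to 164). The pineal markers Aanat and Tph1 stayed below the filter, with sums of 49.2 to 82.4 and 35.9 to 76.0. The cerebellar markers Gabra6 and Cbln3 and the pituitary marker Prl passed the filter only through their 8-week values. The meningeal markers Col1a1 and Col3a1 passed it only through those of 1 week. For these genes a low level at the other age had to show as a difference. The part of the markers in the members' changes was not tested.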

How the data were processed

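Brain RNA of 10 C57BL/6 mouse samples was read on Affymetrix MOE430A arrays, 1 array each. The table the authors deposited holds linear intensity, with a column for every array. How probes were summarised is not given in the sources used here. Precision is limited by the number of arrays, 10 in all. Groups of age and labelled sex came from the labels. The members, lists and tests were chosen with earlier results of these data known.

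Of 22690 probe sets, 64 array controls were left out. After quantile normalization between arrays, 24 was added as a pseudocount (20th percentile of the values) and log2 taken. Probe sets under the 40th percentile of mean log2 value were left out, which left 13576, the dimmest at a mean of 74.5. Genes were named from the platform annotation where a probe set had 1 symbol (20380 probe sets; 691 had several and 1555 none). limma 3.58.1 in R 4.3.3 (lmFit and eBayes, 6 residual degrees of freedom) fitted 1 coefficient per group, with two-sided p-values adjusted by Benjamini-Hochberg over all probe sets tested and a threshold of 0.05. Pairs of related genes and relations with Dbp used exact permutation tests. Named genes were all members, all loop partners, and from each other list at most 4 that passed in each direction. Fos, Junb, Nr4a1, Fkbp5, Ier2 and Nfkbia were added after their values were seen.

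Alternatives changed the pseudocount, the scaling, the filter, the probe set, the model (replicate block, age alone, intensity trend, array weights) or the arrays used. In a simulated age comparison on 22626 probe sets, of which 200 were changed, the fit called 68.1% of changes of 0.5, 96.9% of 1 and 100% of 2 on the log2 scale. In the measured data 46.0% of the probe sets tested passed, so the Benjamini-Hochberg cut differed and these rates need not hold there.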

Additional observations from a re-analysis of the deposited data

How the results depend on the processing

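The count of members higher at 8 weeks was 7 to 9 over 23 alternatives and 8 or 9 on leaving out single arrays, with 0 lower in each. Of 200 alternative values for the 9 members, 189 kept direction and call, and the other 11 were lost calls of Per1. The 7 arose at the filter at the 60th percentile, which removes Per2 and Per3. Without normalization, changes relative to the median shift of 0.47 ran from 0.32 for Per1 to 1.80 for Bhlhe40.

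Over all probe sets 2993 were higher and 3253 lower, and 2477 to 2935 and 2731 to 3126 on leaving out single arrays. They were 8673 and 629 without normalization. With age alone, 1974 were lower without the 4 arrays whose sex transcripts opposed their label, and 1973 higher against 1754 lower when the female-labelled replicate 3 of 1 week was dropped too. Fewer arrays enter these fits. The replicate block gave 8 members higher, with Per1 at 0.25 (limma adjusted p = 0.0856), and changed no other member's call. Same-numbered arrays had correlations of deviations from -0.0251 to 0.19, over 0.1 in 5 of 13 pairs. They were not set against arrays of different number, so whether the numbers pair the samples was not settled.

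Without normalization the sign turned for Arntl2 (0.17), Nono (0.0233), Csnk1e (0.0503), Nampt (0.19), Tfrc (0.27), Btg2 (0.13) and Cirbp (0.0105). Relative to the shift of 0.47 all 7 stayed below 0, from -0.20 for Tfrc to -0.46 for Cirbp. Without the 5 doubted arrays it turned for Npas2 (-0.30) and Rorb (-0.0138). The Dbp and Hlf difference turned at 4 times the pseudocount (-0.0135) and ran from -0.0898, without replicate 2 labelled male at 8 weeks, to 0.14 on leaving out single arrays. Of the pairs of related genes, 2 passed. There were 3 at the smaller pseudocount, with Per1 and Per2 added, and 1 at 4 times the pseudocount, without normalization and with median scaling. On leaving out single arrays 0 to 2 passed, where the smallest p the fewer arrays allow is larger. The cause of the other changes was not tested. Male minus female at 8 weeks gave 0 members in the fit of 8-week arrays alone too. The relations with Dbp gave 0 past the threshold in 4 alternatives chosen after the data were seen, as was the setting without the 5 arrays.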

Other observations

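Genes that respond to brain and body temperature, which can also entrain clocks, were listed as well. Of 7 listed, 4 were tested, 1 rose and 1 fell. Over all genes 45.9% passed in either direction, so these counts are near the background. Hsph1, a heat shock protein that assists Hspa8, read 1011 ± 176 at 1 week and 1461 ± 110.3 at 8 weeks and rose by 0.54 ± 0.13 (limma adjusted p = 0.00686). Cirbp, the cold-inducible RNA-binding protein, fell by 0.51 on the log2 scale (limma adjusted p = 0.00179) and was at -0.46 relative to the shift of the whole table without normalization. The Cirbp call was lost without the 4 arrays whose sex transcripts opposed their label (-0.60, limma adjusted p = 0.0537). Without the 5 arrays of 1 week whose sex transcripts were in doubt, both calls were lost (0.34 and -0.37). At 8 weeks Cirbp read 265 and 226 in the arrays labelled female and 327 and 352 in those labelled male, the same side as Dbp.

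The genes whose deviations from the age means were most like those of Dbp over the 10 arrays were Slc12a9 (r = 0.92), Tmem199 (r = 0.89), Klrk1 (r = 0.88), Ppp2r1a (r = 0.88) and Hes1 (r = 0.87), as a description among 8146 genes. No member was among these 5. Per1 (r = -0.57) and Per2 (r = -0.70) ranked 7893 and 8072 of 8146, near the opposite end. Tef (r = 0.26), Nr1d1 (r = 0.25), Hlf (r = 0.23), Arntl (r = 0.29), Bhlhe40 (r = 0.25) and Nr1d2 (r = -0.0915) lay between. All these values share the same 10 arrays and their scaling.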
